A study of Homo sapiens with 6 samples.

Results

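MicroRNA-125 (miR-125) sites are the places on cellular RNA where Argonaute was crosslinked and a miR-125 seed match was assigned in the surrounding sequence. The match need not lie next to the crosslink. The seed is that of hsa-miR-125a-5p and hsa-miR-125b-5p, which the deposited annotation lists as a single seed. The sites were taken as every site of the annotated table whose assigned seed names hsa-miR-125a-5p, whatever the kind of match or the place in the transcript. This gave 200 of 16230 sites, or 200 of the 10249 sites with an assigned seed, and the rule used no read value. The 200 sites lay in 171 of the 4361 genes of the table, with 159 genes holding 1 site, 9 holding 2 and 3 holding more. Another 7 sites had no gene name.

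The sites came from PAR-CLIP of HK2 cells, an immortalised human proximal tubule cell line. In this assay 4-thiouridine placed in new RNA is crosslinked to bound protein by long-wave UV light, and crosslinked positions are read as T-to-C changes. The TGFbeta1 group was 2 anti-Argonaute libraries from cells kept with 20 ng/mL TGF-beta1 over 24 h, and the control group was 2 anti-Argonaute libraries from cells without it. Cells of both groups were serum starved for 24 h, carried 100 uM 4-thiouridine for 20 h and were irradiated at 365 nm. HK2 is 1 established line, and no label says that libraries of a group came from separate cultures, so the p-values below measure only how these libraries vary, and that variation may be technical. Libraries from an IgG pull-down were not analysed here.

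Argonaute proteins carry microRNAs and are led by them to RNAs that pair with the seed, mature bases 2 to 8, after which the RNA is repressed or degraded. A 7-base match to the whole seed, above all when an A stands opposite mature base 1, is known to repress more than a 6-base match, and sites in the 3' UTR more than sites elsewhere. miR-125 is the vertebrate relative of lin-4, the first microRNA found in the worm Caenorhabditis elegans, and in mammals it is known for regulation of apoptosis and differentiation genes.

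The annotation cannot separate both microRNAs, whose first 13 bases are identical, the seed (bases 2 to 8, capitals) included. The sequences are from RefSeq (GRCh38). hsa-miR-125a-5p comes from MIR125A at chr19:51693268-51693291 on the plus strand. hsa-miR-125b-5p comes from MIR125B1 at chr11:122099809-122099830 on the minus strand and from MIR125B2 at chr21:16590253-16590274 on the plus strand.
hsa-miR-125a-5p: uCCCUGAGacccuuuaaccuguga
hsa-miR-125b-5p: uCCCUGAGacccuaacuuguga

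Of the 12 sites of highest mean level, 11 are printed next from the deposited table, since the results on single sites turn on them. Each is 30 bases long, the deposited window of 31 bases without its first, written 5' to 3' on the transcribed strand (hg38), with the crosslinked T as base 15 and the seed match in capitals. They lay in RPS14 (coding, chr5:150447669-150447698, minus), SUCO (3' UTR, chr1:172610731-172610760, plus), RPS28 (coding, chr19:8321669-8321698, plus), H2AFZ (3' UTR, chr4:99948424-99948453, minus) and ZNF264 (3' UTR, chr19:57213144-57213173, plus). The other sites lay in a tRNA gene (chr6:28982242-28982271, plus), LATS2 (3' UTR, chr13:20973115-20973144, minus), XRCC5 (coding, chr2:216148235-216148264, plus), CTBP1 (3' UTR, chr4:1211809-1211838, minus), UBN2 (3' UTR, chr7:139307362-139307391, plus) and ATL2 (coding, chr2:38298298-38298327, minus). The SUCO match runs past the end of the deposited window. The deposited location of the crosslink was other, not adjacent or near, at RPS14, SUCO, XRCC5 and the tRNA site. There the crosslinked T lay opposite mature base 19 in SUCO and mature base 14 in the rest. At the remaining printed sites the location was adjacent.
RPS14: acaggtcatcagcctcggacCTCAGGtggc
SUCO: gctttgagggggtctgtgcctgaagCTCAG
RPS28: tgggcaggaccggttCTCAGGGacagtgca
H2AFZ: tggattccttgttatCTCAGGactctaaat
ZNF264: acagtgcaattttatCTCAGGaattatttt
TRE-CTC1-6: cggcccgggttcgattcccggTCAGGGaat
LATS2: tgtggtaggttctttCTCAGGaactcagtt
XRCC5: gaaaaaggatcaagtgactgCTCAGGaaat
CTBP1: gcagttggcaaacttCTCAGGacaatgaat
UBN2: gatgtttgtaataatCTCAGGacctgaaag
ATL2: tgctatgtatataatCTCAGGactgactgg

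Of these 11 sites, 9 matched mature bases 3 to 8, the RPS28 site matched bases 2 to 8, and the tRNA site matched bases 2 to 7. The 7-letter match CTCAGGG stood in 36 miR-125 windows of 31 bases and in 43 windows of all sites (0.265%), searched on the transcribed strand only. The 6-letter match CTCAGG, which CTCAGGG contains, stood in 196 windows (1.21%), 137 of them miR-125 windows. CTCAGGGA, the 7-letter match followed by an A, stood in 27 windows (0.166%), 26 of them miR-125 windows. The assigned match was the reverse complement of the seed at all 198 sites without a bulge, over the bases that lie within the window. Another 103 sites list miR-125 only behind a different best seed, 16 of them behind let-7, and are not among the 200. Of the 200, 135 list no other seed, and 19 list another adjacent or near seed, RPS28 among them. The printed ZNF264 and UBN2 sites also list a seed whose deposited microRNA reads exceed those of miR-125.

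Matches to mature bases 3 to 8 made up most miR-125 sites. This kind was assigned at 107 of the 200 sites (53.5%), against 3052 of the 10049 sites of the other 41 seeds (30.4%), which gave miR-125 rank 5 among 42 seeds. The match to bases 2 to 8 was assigned at 39 miR-125 sites (19.5%), against 3017 of the 10049 sites of the other seeds, and the match to bases 2 to 7 at 52 (26%), against 37.4%. The remaining 2 sites had a bulged match. Of the 1835 crosslinked reads at miR-125 sites over the 4 libraries, 1082 (59.0%) were at matches to bases 3 to 8 and 334 (18.2%) at matches to bases 2 to 8. The median site held 6 reads with the longer match for miR-125, against 12 for the other seeds.

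miR-125 sites were less often in 3' UTRs and more often in introns than sites of the other seeds. They numbered 69 in 3' UTRs (34.5%, against 45.5%), 55 in coding sequence (27.5%, against 24.7%) and 53 in introns (26.5%, against 18.5%). The share of 3' UTR sites gave miR-125 rank 28 of 42 seeds. The 3' UTR sites held 829 of the 1835 reads (45.2%), and their median was 9 reads, against 7 in coding sequence and 5 in introns. The windows had a median GC content of 48.4%, against 41.9% for the other seeds. These shares describe sites that share libraries and were not tested.

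**Figure D1:**
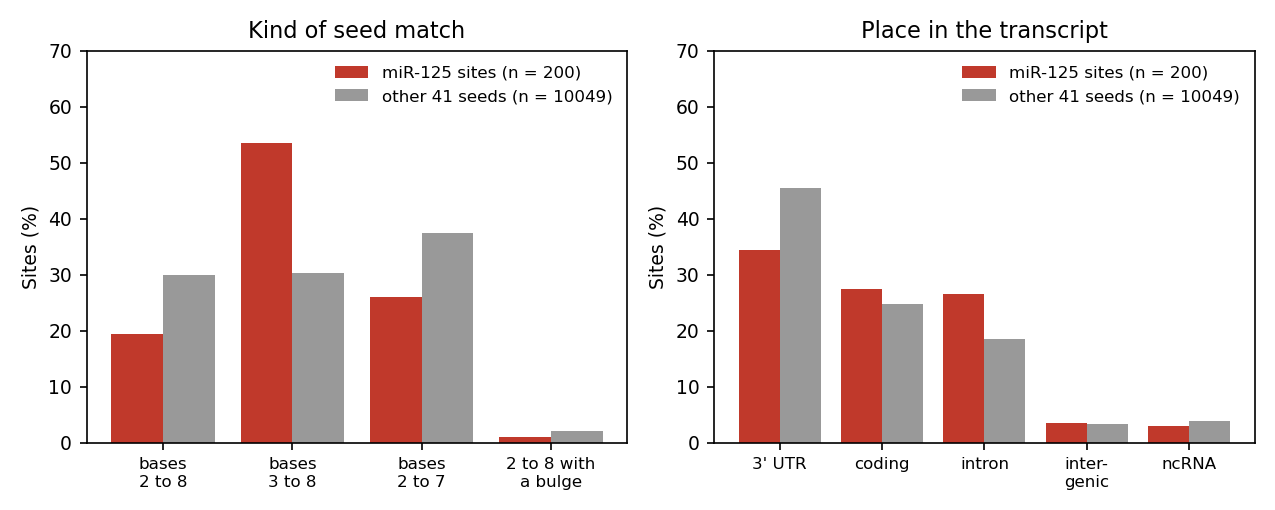
Bars give the percent of sites by kind of seed match (left) and by place in the transcript (right) for the 200 miR-125 sites and the 10049 sites of the other 41 seeds. Matches to mature bases 3 to 8 reach 53.5% for miR-125 against 30.4%, and 3' UTR sites 34.5% against 45.5%; the rarer places are not drawn.

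The crosslinked T most often lay just upstream of the seed match, opposite mature base 9. This held for 59 of 198 unbulged miR-125 sites (29.8%), against 29.0% for the other seeds. A further 36 sites (18.2%, against 4.47%) were crosslinked opposite base 7. That base is an A, and the match holds no other T, so no crosslink can lie opposite bases 3 to 6 of a full match. In 3' UTRs the crosslink lay opposite base 9 at 39 of 69 sites (56.5%, 95% Wilson interval 44.8 to 67.6%), against 38.7% for the other seeds. In coding sequence it did so at 14 of 54 sites (25.9%, against 26.3%), and in introns at 4 of 53 (7.55%, against 12.5%).

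Sites crosslinked opposite base 9 also held more reads. Their median was 11 reads over the 4 libraries, against 6 at the 139 sites crosslinked elsewhere, and 66.1% of them lay in 3' UTRs, against 21.6%. Within 3' UTRs the medians were 13 and 6 reads. Opposite base 14 there were 11 sites (5.56%, against 1.67%) with a median of 16 reads. These 11 included RPS14, XRCC5 and 4 sites in near-identical tRNA-Glu genes, which are 1 source, and 7 of the 11 lie outside tRNA genes.

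**Figure D2:**
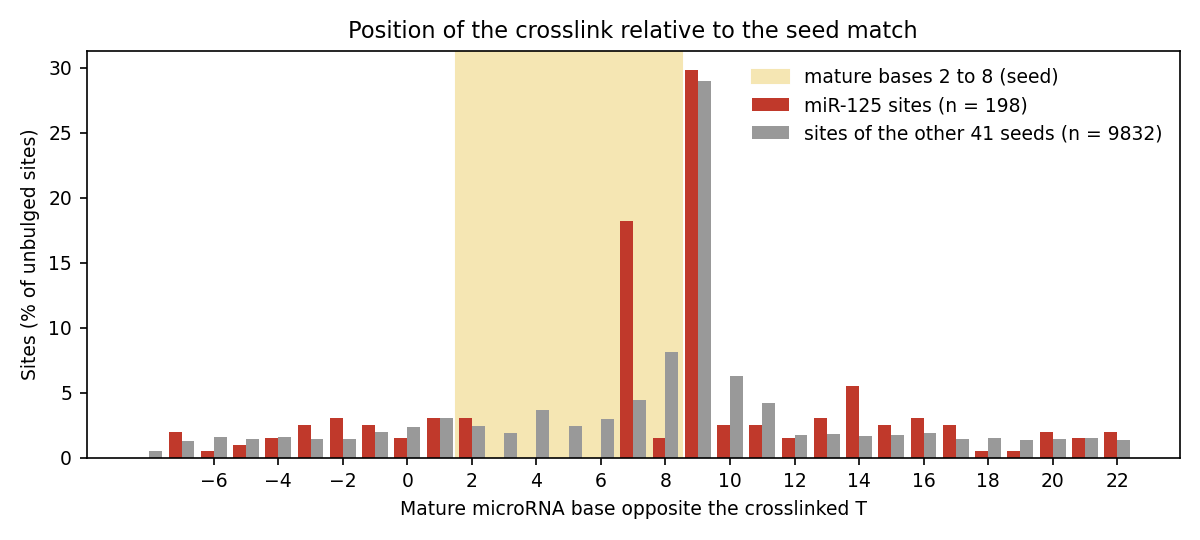
Bars give the percent of unbulged sites (vertical axis) whose crosslinked T lies opposite each mature microRNA base (horizontal axis; 0 and below lie past the mature 5' end), for 198 miR-125 sites and 9832 sites of the other 41 seeds. Base 9 leads in both sets (29.8% and 29.0%), and miR-125 has further peaks at base 7 (18.2%) and base 14 (5.56%).

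An A opposite the first bases of the microRNA was frequent. Among matches to bases 2 to 8 with that base in the window, 26 of 36 (72.2%) had an A opposite mature base 1, against 1302 of 2880 (45.2%) for the other seeds. This was the highest share of the 31 seeds with at least 20 such sites. Argonaute is known to hold an A at this place in a pocket of its own, without pairing. Among matches to bases 3 to 8, the unpaired base opposite mature base 2 was an A at 57 of 101 sites (56.4%), a T at 28 and a C at 16. A G there would extend the match and so cannot occur. The other seeds had an A at 27.8%, but their second base varies from seed to seed. Where it is a U, an A would extend the match and cannot occur, so these shares are not like for like.

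The sites with this A were also those most often crosslinked opposite base 9. They numbered 26 of 57 (45.6%), against 3 of 28 with a T and 2 of 16 with a C. For the other seeds the same share with an A was 149 of 765 (19.5%). Matches to bases 3 to 8 as a whole were crosslinked opposite base 9 at 29.0% of miR-125 sites, rank 6 of the 36 seeds with at least 20 such sites, against 12.8%. The printed H2AFZ, ZNF264, LATS2, CTBP1, UBN2 and ATL2 sites all show this arrangement, a T before the match and an A after it.

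Depth differed between the groups. The libraries held 5293207 and 3415700 reads in the TGFbeta1 group, against 1714444 and 1926254 in the control group, and 621 and 592 crosslinked reads at miR-125 sites, against 261 and 361. A read was present at 89.5% and 81% of the 200 sites in the TGFbeta1 libraries, against 62.5% and 71.5% in the control libraries. At miR-125 sites with a read in that library, crosslinked reads made up 18.6% and 21.8% of the covering reads in the TGFbeta1 libraries. In the control libraries they made up 26.8% and 28.7%. Over all sites the values were 18.0% and 21.2%, against 25.8% and 28.3%. The part of this difference in the results below was not tested. Of 12 proximal tubule marker genes none had any Argonaute site, of 7 epithelial ones 3 did (CLDN1, JUP and KRT18), and of 12 of other cell types none did; an Argonaute site is not a measure of expression.

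miR-125 sites were thinly covered, as was the median site of the table, and more thinly than sites of the other seeds. The median was 7 reads per site over the 4 libraries, and also 7 over all 16230 sites. The highest was 57 reads, against 1908 over all sites, with 60 miR-125 sites at 10 reads or more and 8 at 30 or more. Reads were present in all 4 libraries at 70 sites (35%, against 37.9% of all sites), in 3 at 69 and in 2 at 61. Both control libraries were at 0 reads at 27 sites (13.5%, against 11.5% of all sites). Both TGFbeta1 libraries were at 0 reads at 4 (2%, against 1.19% of all sites). By total reads per site (9.18) miR-125 had rank 36 of 42 seeds, and by the deposited value for the microRNA's own reads (5719 RPM, rounded by the authors, with no library named) rank 15.

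The most read sites lay in a mix of coding sequence and 3' UTR. RPS14, a protein of the small ribosomal subunit, had 18 and 19 crosslinked reads in the TGFbeta1 libraries, against 5 and 15 in the control libraries, all at 1 coding site that is the gene's only site. SUCO, a protein of the endoplasmic reticulum, had 17 and 15 reads at its 3' UTR site, against 5 and 10. RPS28, another small subunit protein, had 14 and 9 reads, against 5 and 13, at the only 7-base match among the printed sites. Levels are given from here on as RPM (crosslinked reads scaled to library depth) after TMM scaling, called scaled RPM, since the libraries differ in depth. On that scale RPS14 averaged 5.48 ± 0.08 in TGFbeta1 libraries and 3.97 ± 1.69 in control libraries, and SUCO 4.76 ± 0.67 and 3.10 ± 0.47 (SD, n = 2 each). At both sites the TGFbeta1 libraries lie above the control libraries on this scale, by little for RPS14.

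Both of these sites were tested, and neither differed by more than the spread allows. The limma log2 difference, TGFbeta1 minus control, was 0.43 ± 0.49 (SE) for RPS14 with an adjusted p of 0.703, and 0.49 ± 0.51 for SUCO with an adjusted p of 0.667. Without TMM scaling both values turn negative, at -0.13 for RPS14 and -0.05 for SUCO; that setting moves the median of all tested sites to -0.51, against 0.05 with it. In the fit over 1059 sites, adjusted by Benjamini-Hochberg, 76 (7.18%) passed, 39 higher (3.68%) and 37 lower (3.49%). Crosslinked reads rise with the amount of a transcript as well as with its occupancy, and these cannot be told apart here.

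Among the other sites of highest level, H2AFZ, which encodes the histone variant H2A.Z, had 19 and 17 reads at its 3' UTR site in TGFbeta1 libraries, against 3 and 5 in control libraries. UBN2, a ubinuclein of the histone H3.3 deposition complex, had 12 and 7 reads, against 3 and 3. In both the groups do not overlap on the scaled level. LATS2, a kinase of the Hippo pathway, had 7 and 9 reads, against 5 and 9, and XRCC5, the Ku80 subunit in DNA end joining, had 7 and 1, against 4 and 13. After scaling both TGFbeta1 libraries lay below both control libraries at these 2 sites. ZNF264, a zinc finger protein, had 16 and 9 reads, against 7 and 2, CTBP1, a transcriptional corepressor, 6 and 11, against 4 and 5, and ATL2, an atlastin that shapes the endoplasmic reticulum, 5 and 13, against 4 and 1. For these 3 and for RPS28 the groups overlap. None of these 8 sites passed the low-count filter.

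**Figure D3:**
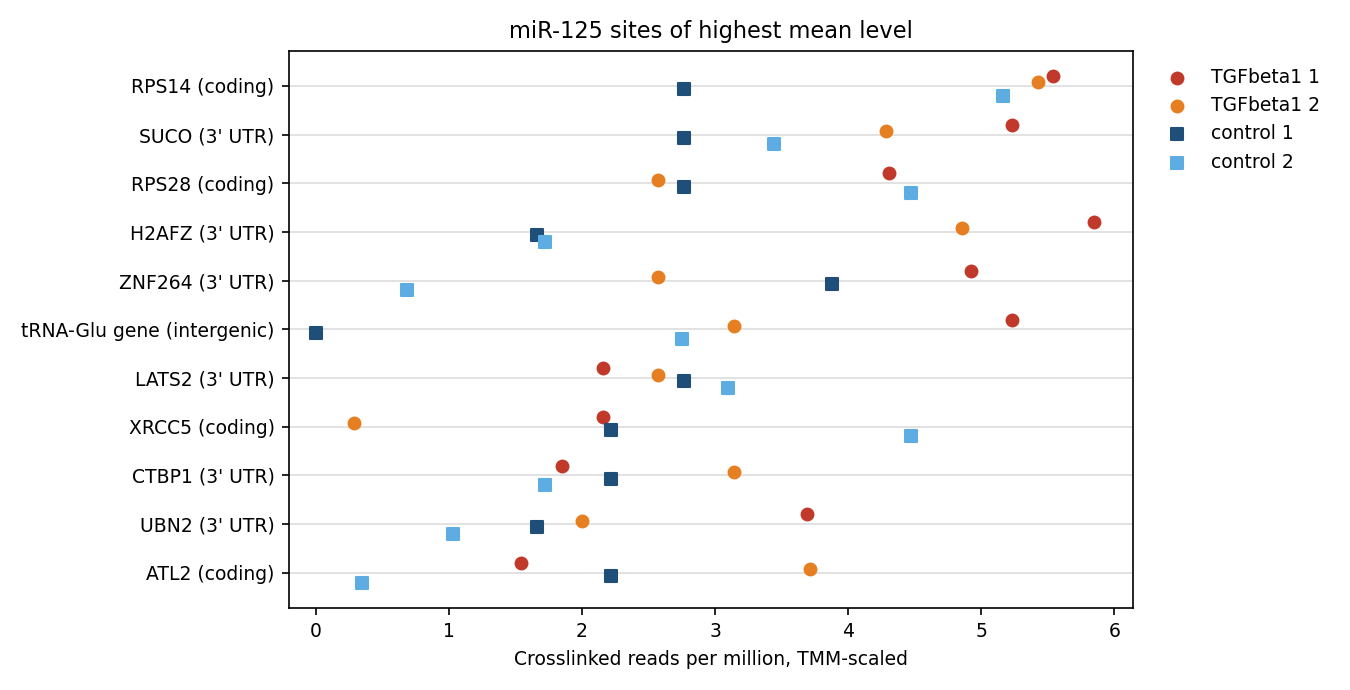
Points give the crosslinked level in scaled RPM (horizontal axis) of each of the 4 libraries at 11 miR-125 sites of high mean level. At H2AFZ the TGFbeta1 libraries lie well above the control libraries, while RPS28, ZNF264, CTBP1 and ATL2 overlap.

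Over all 200 sites the groups separated about as often as over the whole table. Both TGFbeta1 libraries lay above both control libraries at 55 sites (27.5%), against 25.5% of all 16230 sites, and below them at 25 sites (12.5%), against 13.5%. At the other 120 the groups overlapped. Only 3 of the 200 sites had enough reads to be tested, RPS14 and SUCO among them, and 1 passed. That site met the minimum count only through the TGFbeta1 libraries, where it is high, and so had to differ to be tested. The site test says nothing of the other 197. With no filter on low counts none of the 200 passed limma's test, and 35 had an unadjusted p under 0.05, against 2315 of all 16230 sites. Coverage, the reads spanning a site whether or not they carry a crosslink, was tested only at sites crosslinked in all 4 libraries. Of these, 32 miR-125 sites could be tested and 2 passed, against 203 of 3692 (5.5%) of all such sites. Among the 2 was a site in the let-7b host transcript (MIRLET7B, MIRLET7BHG) that was lower. At the printed tRNA site the control library without a crosslinked read had a coverage of 0 as well. The let-7b site, named after its values were seen, had 5 and 5 covering reads in TGFbeta1 libraries, against 15 and 18 in control libraries. Of these, 2 and 2, against 1 and 5, were crosslinked. The let-7b site met the minimum count only through the control libraries, where it is high, and so had to differ to be tested.

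Sites in tRNA genes formed a small group of their own. Of 36 sites within a RefSeq tRNA gene, 5 were miR-125 sites, 4 of them in tRNA-Glu genes and 1 in a tRNA-Lys gene. The printed chromosome 6 site lies in TRE-CTC1-6 (chr6:28982199-28982270) and had 17 and 11 reads in TGFbeta1 libraries, against 0 and 8 in control libraries. The 4 tRNA-Glu windows shared at least 30 of 31 letters, so reads from these copies cannot be assigned to 1 of them with certainty and the copies are 1 source. Together they had 37 and 28 reads in TGFbeta1 libraries, against 2 and 12 in control libraries, or 5.96% and 4.73% of the miR-125 reads, against 0.766% and 3.32%.

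The share of all crosslinked reads that fell on miR-125 sites was higher in both TGFbeta1 libraries. It was 0.828% and 0.820% in TGFbeta1 libraries, against 0.706% and 0.671% in control libraries, a difference of 0.136 percentage points. The exact two-sided permutation test over libraries gave p = 0.333, the smallest that 2 against 2 allows. Of the 42 seeds 10 (23.8%) had a share that was higher in both TGFbeta1 libraries than in both control libraries. The difference was 0.108 without the tRNA sites and 0.0651 without sites in genes that passed the gene test, both settings chosen after seeing the data. With each site counted once, whatever its reads, the shares were 1.23% and 1.17% in TGFbeta1 libraries, against 1.16% and 1.26% in control libraries, and the difference turned to -0.00700.

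**Figure D4:**
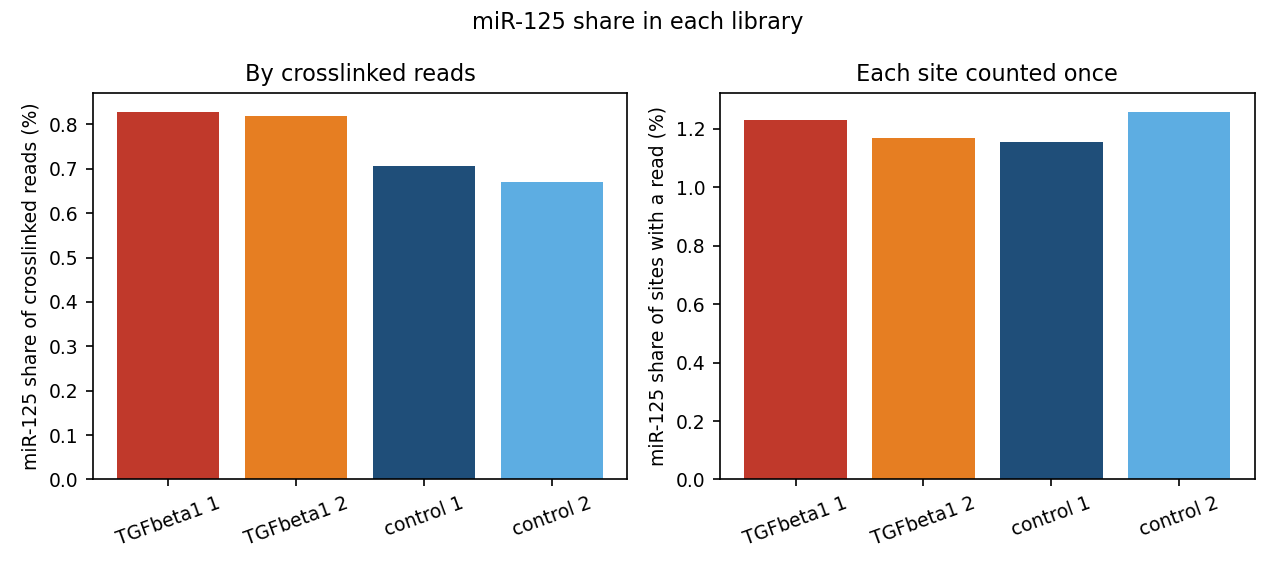
Bars give, for each library, the miR-125 share of crosslinked reads (left) and of sites with a read (right), both in percent. By reads the TGFbeta1 libraries (0.828% and 0.820%) stand above the control libraries (0.706% and 0.671%); by sites the groups overlap.

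By crosslinked reads the groups overlapped in the place of these reads in the transcript. Sites in 3' UTRs took 41.4% and 48.1% of the miR-125 reads in TGFbeta1 libraries, against 46.7% and 45.7% in control libraries (difference -1.46 percentage points, exact two-sided permutation p = 1). By covering reads the 3' UTR share averaged 36.7 ± 3.23% in TGFbeta1 libraries and 43.8 ± 3.21% in control libraries (SD, n = 2 each), and the groups do not overlap. The difference was -7.08 (exact two-sided permutation p = 0.333, the smallest that this design allows). At 1 ACTG1 site in the 3' UTR, covering reads were 198 and 143, against 56 and 0, the last in a library without a crosslinked read there. The part of such zeros in the share by covering reads was not tested. Matches to bases 2 to 8 took 17.1% and 18.2%, against 17.2% and 20.8%. The let-7 sites of the same libraries took 6.11% and 6.62% of all crosslinked reads, against 6.59% and 7.72%, and there too the groups overlap.

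A larger share of genes with a miR-125 site than of all genes passed the gene test, but the miR-125 sites held few of those genes' reads. Reads were summed over all sites of a gene, and 98 of the 171 genes had enough to be tested. Of these, 8 were higher and 4 were lower in TGFbeta1 libraries (12.2% of 98), against 39 of 1266 (3.08%) of all tested genes, 20 higher (1.58%) and 19 lower (1.5%). The tested genes with a miR-125 site had a median of 144.5 reads, against 77 for the other tested genes. The part of this in the count was not tested. A gene enters the set only through a crosslinked miR-125 site. At JAG1, FRMD6 and TGFBI that site had reads in the TGFbeta1 libraries only, the group where these genes are high. The 12.2% is therefore not independent of how the genes were found. The median log2 difference was 0.18 over the 98 genes and 0.02 over all tested genes.

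The called genes that were higher included known TGF-beta responders. FN1, which encodes the matrix protein fibronectin, had 1089 and 1009 reads over its 196 sites in TGFbeta1 libraries, against 169 and 214 in control libraries, a log2 difference of 1.77 ± 0.19 (SE; limma adjusted p = 0.000449). JAG1, a ligand of Notch receptors, had 112 and 109 reads, against 10 and 2 (3.26 ± 0.52, limma adjusted p = 0.0104). With 2 reads in a control library, JAG1 met the minimum count only through the TGFbeta1 libraries; its log2 difference was 2.28 and 4.23 without a single control library and 1.76 over 3' UTR sites only, and DESeq2 did not call it (adjusted p = 0.0573). FRMD6, a FERM domain protein of the Hippo pathway, had 251 and 252 reads, against 22 and 37 (2.37 ± 0.23, limma adjusted p = 0.000449). In each the TGFbeta1 libraries lie far above the control libraries. TGFBI, a matrix protein named for its induction by TGF-beta, had 57 and 70 reads, against 8 and 11 (1.85 ± 0.33).

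AMIGO2, a cell adhesion protein, had 191 and 221 reads in TGFbeta1 libraries, against 42 and 62 in control libraries. HSPA5, the chaperone BiP of the endoplasmic reticulum, had 148 and 157, against 38 and 44. ACTG1, a cytoplasmic actin, had 309 and 295, against 80 and 119. Their log2 differences were 1.29, 1.18 and 0.93, all past the test. The HSPA5 and ACTG1 calls held in 7 of 16 other settings each, and both were lost without TMM scaling, at a minimum count of 5 and without any single library. Without TMM scaling the FN1, TGFBI and AMIGO2 calls were lost too (limma adjusted p = 0.133, 0.168 and 0.537).

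The 4 lower genes were PARD6B, a cell polarity protein, ARRDC3, an arrestin domain protein, AHNAK, a large scaffold protein, and PEG10, an imprinted gene derived from a retrotransposon. PARD6B had 74 and 76 reads in TGFbeta1 libraries, against 129 and 188 in control libraries (log2 difference -1.69 ± 0.22, limma adjusted p = 0.00229). ARRDC3 had 33 and 49, against 75 and 104 (-1.73 ± 0.27), AHNAK 56 and 70, against 101 and 132 (-1.51 ± 0.24), and PEG10 416 and 483, against 462 and 747 (-1.06 ± 0.19). In PEG10 the raw reads of the groups overlap, while the levels after scaling do not: 128 ± 13.8 scaled RPM in TGFbeta1 libraries and 268 ± 17.4 in control libraries (SD, n = 2 each).

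In these 12 genes the miR-125 sites held 0.380% (PEG10) to 6.01% (JAG1) of the gene's reads. The median over the 171 genes was 15.8%, and 28 of them had no reads elsewhere. The 171 include genes with too few reads to be tested, while the 12 come from the 98 tested genes. That median is therefore not like for like, and the low shares are not a trait shown to be particular to called genes. With the miR-125 sites taken out of the sums, the same 12 genes passed, 8 higher and 4 lower. The calls need both control libraries: without either one they were lost, as were all gene calls of the whole table. They also depend on the fit. When the variance prior ignores the mean level 1 call (FRMD6) was left, against 3 of all 1266 tested genes. Without TMM scaling 7 were left (3 higher and 4 lower), against 29 of 1266.

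**Figure D5:**
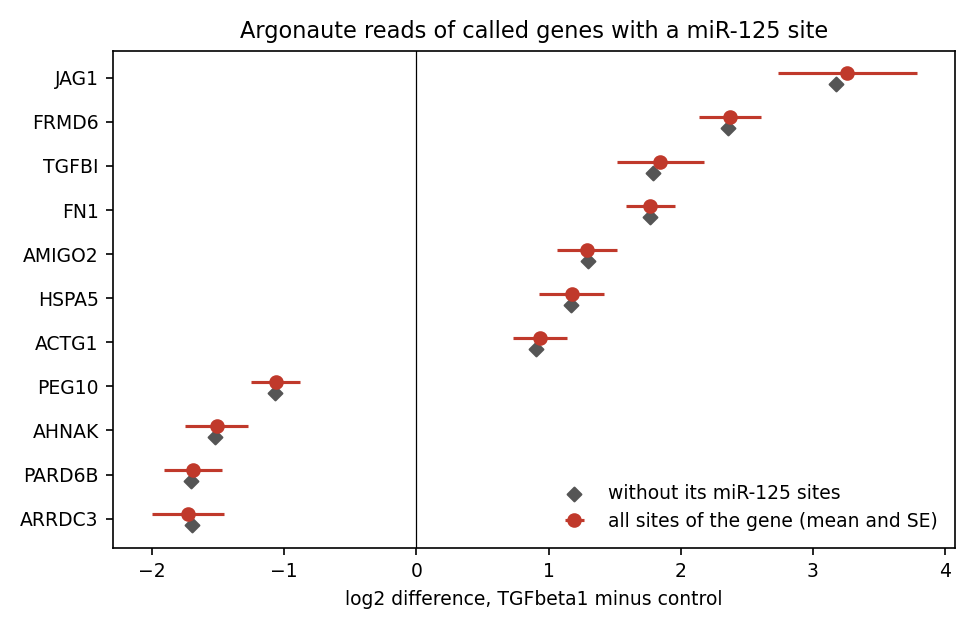
Points give the log2 difference, TGFbeta1 minus control, of the reads summed over all sites of 11 of the 12 called genes (circles, bars are SE) and over their sites other than miR-125 sites (diamonds). Both values lie close together in every gene, with 7 above 0 and 4 below.

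The miR-125 sites within these genes had few reads. JAG1's intron site had 7 and 7 reads in TGFbeta1 libraries, against 0 and 0 in control libraries, which is at least 3.26-fold higher against a floor of 3 counts over the control group, with the TGFbeta1 reads taken as counted. The FRMD6 coding site had 4 and 3, against 0 and 0, and the TGFBI coding site 2 and 3, against 0 and 0. ACTG1 had 14 and 9 reads at 2 sites, both in the 3' UTR, against 2 and 1. The ARRDC3 3' UTR site ran the other way, with 1 and 2 reads, against 5 and 4. None of these had enough reads for the site test.

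FN1, DCBLD2 and MKI67 held the most miR-125 sites. FN1 had 6, of which 5 lie in coding sequence and 1 in an intron, with 20 and 21 reads in TGFbeta1 libraries, against 4 and 2 in control libraries, or 1.89% of the gene's reads. DCBLD2, a transmembrane receptor, had 6 intron sites with 8 and 11 reads, against 6 and 3, or 0.656% of the reads at its 428 sites. MKI67, the proliferation antigen Ki-67, had 4 coding sites with 6 and 4 reads, against 1 and 4, or 7.89% of its reads. Of the MKI67 windows 3 lie in near-identical repeats, sharing 26 to 30 of 31 letters in pairs, and so are not separate sequences. DCBLD2 and MKI67 did not pass the gene test (limma adjusted p = 0.573 and 0.686).

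Published miR-125 targets with a miR-125 site came down to 1 gene. Of 51 genes taken from general knowledge as reported targets, 15 had any Argonaute site and 1 of those (6.67%) had a miR-125 site, against 171 of 4361 genes (3.92%) in the whole table. That gene was MCL1, an inhibitor of apoptosis, with a 7-base match in its 3' UTR crosslinked opposite base 9 at chromosome 1 position 150574763 (minus strand). Its site had 4 and 3 reads in TGFbeta1 libraries, against 0 and 7 in control libraries, and the groups overlap. The whole gene had 110 and 102 reads, against 56 and 79, with a log2 difference of -0.01 ± 0.23 (limma adjusted p = 0.988). Of the 51 genes 4 were tested and none passed, against 3.08% of all tested genes, and their median log2 difference was -0.05.

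The other gene lists held from 0 to 2 genes with a miR-125 site. Of 30 genes of apoptosis and the p53 network 19 had a site, MCL1 alone a miR-125 site, and none of 8 tested passed; the median log2 difference was -0.05. Of 20 genes of the microRNA machinery 10 had a site and none a miR-125 site, with none of 7 tested past the threshold. Of 41 genes of TGF-beta signalling and its targets 26 had a site and 17 were tested. Of these 17, 6 were higher and 1 was lower, while of all 1266 tested genes 20 were higher (1.58%) and 19 lower (1.5%). The median log2 difference of the list was 0.32, against 0.02 over all tested genes. Of the 26 genes with a site 2 held a miR-125 site, TGFBI among them.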

How the data were processed

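Crosslinked-read and coverage values were deposited as RPM, per the file headers, with each library's total as the denominator. Values times depth gave whole reads at 100% of entries (within 0.1 read), and these reads are the counts printed here. The microRNA's own reads were deposited as RPM per seed, rounded to whole numbers, and the site list's score is 1 at every site, per the file headers. STAR 2.7.1a, bcl2fastq 2.20.0.422, bedtools and hg38 come from the submitters' processing notes, and GENCODE 27 from the file headers. The crosslink caller, its filters and the handling of reads that map to several places were not given in the sources used here. Molecular identifiers are not mentioned, so intervals and floors cover counting error only.

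TGFbeta1 and control (2 libraries each) were compared on log2(TMM-scaled RPM + 1) with limma 3.58.1 (R 4.3.3, lmFit, eBayes with trend, two-sided), over every site or gene kept by edgeR's filterByExpr (minimum count 10), with Benjamini-Hochberg adjustment over all of them and a threshold of 0.05. A fold on this scale understates the change of low sites. edgeR 4.0.16 (quasi-likelihood, on the recovered reads) called 82 sites and 48 genes of the whole table; DESeq2 1.42.0 was another alternative. Of these, only the main limma fit was run on simulated counts with known changes. Library shares were compared with an exact permutation test.

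Named were the 12 sites of highest mean level, sites past the test or, under 4 in a direction, the tested sites of smallest p, sites in published targets and in the other lists, genes with 3 or more sites, and called genes. The members, lists and tests were chosen with earlier results of these data known. The difference of library 1 from library 2 within TGFbeta1 correlated with that within control at 0.117 over tested sites and 0.131 over tested genes. Same-numbered libraries (2 pairs) were not taken as paired. The 4 RNA-seq columns were not used, and 2 IgG libraries were not analysed here. Values of 1 gene and its site are not reported here.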

Additional observations from a re-analysis of the deposited data

How the results depend on the processing

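The number of miR-125 sites called (1) went to 0 without TMM scaling (limma, 1 site at an unadjusted p under 0.05), to 0 with no filter (limma, 35 sites) and to 2 on coverage. It was also 0 with DESeq2, which gave no adjusted p for 2 of the 3 tested sites. It ranged from 0 to 1 when single libraries were left out. The number of genes called (12) was 7 without TMM scaling, 1 without the trend, 2 with no filter and 0 to 10 without single libraries, and 16 with the replicate block, which kept all 12; the replicate block left 1 site called, and the numbers of 2 pairs are not taken to pair the libraries. Over all 1266 tested genes 39 were called in the main fit, against 29 without TMM scaling, 3 without the trend and 57 with the replicate block. With no filter 3 of 4361 were called. In these settings the count of called genes with a miR-125 site moved in the same direction as that of the whole table. The share of crosslinked reads at miR-125 sites differed by -0.00700 percentage points with each site counted once and by 0.118 to 0.154 without single libraries. The 3' UTR share differed by 1.92 without TGFbeta1 replicate 1, and by -4.84 to 1.92 over all such settings; on coverage it differed by -7.08. The log2 differences of SUCO and RPS14 without TMM scaling were -0.047 and -0.13. That setting moved the median of all tested genes to -0.45. The cause of these changes was not tested. Settings that leave a group with 1 library assume that it varies like the other group. Depth limits the site test to 3 of 200 sites.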
